A study of Homo sapiens with 8 samples.

Results

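The genes described are 8 genes of vascular endothelial growth factor (VEGF) signalling and of the hemato-endothelial lineage, chosen by symbol: the ligands VEGFA, VEGFB and PGF, the receptors KDR and TEK, the co-receptors NRP1 and NRP2, and the transcription factor ETV2. All 8 were in the day 2 table of 11644 genes and in the day 0 table of 14070 genes. RNA-seq had been made from the human embryonic stem cell line H1, either SETD7 knockout (KO) or wild type (WT). SETD7 is a lysine methyltransferase that acts on histone H3 and on other proteins. Day 2 of a differentiation towards blood was represented by 3 SETD7 KO and 3 WT libraries, and day 0 by 1 SETD7 KO and 1 WT library. The labels assign every library, day 0 included, to the blood differentiation, and do not say how the knockout was made, whether it was 1 clone, or whether the replicates were separate cultures. The p-values therefore measure only the spread between these libraries, which may be technical.

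VEGF ligands bind receptor tyrosine kinases on the cell surface. VEGFA acts mainly through KDR (VEGFR2), while VEGFB and PGF bind FLT1 (VEGFR1), which also takes up VEGFA with high affinity. The neuropilins NRP1 and NRP2 hold VEGF ligands beside those receptors, and with plexins they also form receptors for class 3 semaphorins. TEK (TIE2) is the receptor of the angiopoietins. In embryos and in differentiating stem cells, KDR marks the mesoderm from which blood and endothelium arise, and ETV2 is an ETS-family factor needed for that step in the mouse.

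On GRCh38, VEGFA lies on chromosome 6 (43770184 to 43786487, plus strand), VEGFB on chromosome 11 (64234538 to 64238793, plus strand) and PGF on chromosome 14 (74941834 to 74955784, minus strand). KDR lies on chromosome 4 (55078259 to 55125595, minus strand) and TEK on chromosome 9 (27109141 to 27230175, plus strand). NRP1 lies on chromosome 10 (33177492 to 33336262, minus strand), NRP2 on chromosome 2 (205681990 to 205798133, plus strand) and ETV2 on chromosome 19 (35641745 to 35644871, plus strand). Exons of 3 of them overlap an antisense gene, over 4.87% of the exon bases of NRP1, 1.30% of VEGFA and 1.06% of NRP2, and no source used here says whether the counting used strand. The exons of the other 5 overlap no annotated gene.

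RefSeq promoter windows (GRCh38.p14, 250 bases before to 50 after the transcription start) were found for 6 of the 8 genes; VEGFA and NRP1 are named only. The windows of 4 genes that were higher in SETD7 KO libraries at day 2, and of ETV2, which was lower, are shown because they hold the proximal sequence of the genes that moved. Each is printed on its gene's strand, and capitals mark a match to 1 of 4 short motifs on either strand. GGAAGT was searched as the motif of ETS-family transcription factors. For the hypoxia response, the letters searched were ACGTG. The motif of GATA-family transcription factors was spelled AGATAA. For TCF/LEF factors of the Wnt pathway it was spelled CTTTGAT. For TEK and PGF, which have 2 start sites each in that set, the upstream window is shown.
KDR, chr4:55125546-55125845, minus strand: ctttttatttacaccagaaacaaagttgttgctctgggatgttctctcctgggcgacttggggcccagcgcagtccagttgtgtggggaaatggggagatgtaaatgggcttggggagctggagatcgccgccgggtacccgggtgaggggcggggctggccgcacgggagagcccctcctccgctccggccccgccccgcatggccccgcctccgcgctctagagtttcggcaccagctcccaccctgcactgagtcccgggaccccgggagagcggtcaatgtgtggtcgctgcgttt
TEK, chr9:27108975-27109274, plus strand: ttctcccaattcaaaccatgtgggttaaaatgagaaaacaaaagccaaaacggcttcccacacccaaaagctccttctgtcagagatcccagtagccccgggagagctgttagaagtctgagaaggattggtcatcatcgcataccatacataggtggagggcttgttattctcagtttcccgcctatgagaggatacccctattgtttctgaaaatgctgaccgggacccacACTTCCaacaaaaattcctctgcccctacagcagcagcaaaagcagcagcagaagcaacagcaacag
NRP2, chr2:205682251-205682550, plus strand: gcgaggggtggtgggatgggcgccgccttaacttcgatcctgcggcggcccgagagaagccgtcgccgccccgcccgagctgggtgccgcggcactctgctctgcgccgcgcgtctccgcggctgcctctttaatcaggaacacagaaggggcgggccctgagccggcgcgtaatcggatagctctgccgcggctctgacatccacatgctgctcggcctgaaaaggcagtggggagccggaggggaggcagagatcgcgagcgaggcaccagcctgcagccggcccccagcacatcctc
PGF, chr14:74955715-74956014, minus strand: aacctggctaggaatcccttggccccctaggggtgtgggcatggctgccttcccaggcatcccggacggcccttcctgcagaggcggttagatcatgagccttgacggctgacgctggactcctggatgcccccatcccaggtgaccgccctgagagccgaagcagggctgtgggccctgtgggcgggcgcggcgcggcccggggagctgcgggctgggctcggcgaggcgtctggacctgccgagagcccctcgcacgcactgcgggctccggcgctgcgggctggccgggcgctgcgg
ETV2, chr19:35641495-35641794, plus strand: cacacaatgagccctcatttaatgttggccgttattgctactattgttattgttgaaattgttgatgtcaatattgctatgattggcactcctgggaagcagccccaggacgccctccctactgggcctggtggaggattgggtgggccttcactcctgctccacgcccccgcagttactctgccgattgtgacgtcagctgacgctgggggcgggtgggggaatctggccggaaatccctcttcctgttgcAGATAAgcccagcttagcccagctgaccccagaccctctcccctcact
The TEK window held 1 ETS match, in the reverse direction, and the ETV2 window held 1 GATA match. The downstream TEK window (chr9:27109200-27109499, not printed) held 1 ETS and 1 GATA match. No motif matched in the windows of KDR, NRP2, PGF or VEGFB. Over all 35116 windows of the set, 22.8% held the ETS motif, 21.4% the hypoxia motif, 10.3% the GATA motif and 2.62% the TCF/LEF motif, so these matches are a description only. GC content was 48% in the TEK window, 56% in ETV2, 65% in KDR, 70% in NRP2, 73% in PGF and 84.7% in VEGFB.

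SETD7 itself gave 32.9, 28.9 and 33.7 CPM (read counts scaled to library size, with TMM factors) in the SETD7 KO libraries, against 54.8, 56.2 and 55.6 CPM in the WT libraries at day 2, and 1.48 FPKM in the SETD7 KO against 3.53 FPKM in the WT library at day 0. All SETD7 KO libraries lay below all WT libraries, and at day 2 the SETD7 level fell by 42.7% (edgeR adjusted p 9.51e-13). Day 2 totals ran from 29647943 to 39553614 counts in SETD7 KO and from 27880068 to 32230627 counts in WT libraries. The day 0 values are FPKM (fragments per kilobase, scaled to library size) and give no depth. Stem cell markers were high at day 0 (8 of 8 at 1 FPKM or more, summing to 1754 FPKM in the SETD7 KO and 1516 FPKM in the WT library). At day 2, all 9 streak and nascent mesoderm markers were measured, summing to 3018 to 3084 CPM in SETD7 KO and 2949 to 2996 CPM in WT libraries. By the edgeR test 4 of them rose and 2 fell, where 12.3% of all tested genes were called higher and 11% lower. The 8 mature endothelial markers and 7 of 8 blood markers were not in the day 2 table. The other blood marker, ITGA2B, averaged 3.56 CPM in SETD7 KO and 2.97 CPM in WT libraries. At day 0 none of 7 endothelial markers reached 1 FPKM, and they summed to 1.18 FPKM in the SETD7 KO and 2.11 FPKM in the WT library, with EMCN listed at 0 in both.

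The first question was whether loss of SETD7 moves these genes at day 2. Of the 8 genes, 5 rose in SETD7 KO cells (KDR, TEK, NRP1, NRP2 and PGF), 1 fell (ETV2), and VEGFA and VEGFB did not pass (edgeR quasi-likelihood test, adjusted p under 0.05 over all 11475 tested genes). In the same test 23.3% of all genes were called, 12.3% higher and 11% lower. The median log2 fold change was 0.13 over the 8 genes and -0.0026 over all tested genes. The genotypes did not overlap in 6 of the 8 genes, against 37.7% of all genes. The 8 genes were chosen with earlier results of these data known, so their counts against these shares are a description only. In bulk RNA, more cells of a type and more RNA per cell cannot be told apart.

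**Figure D1:**
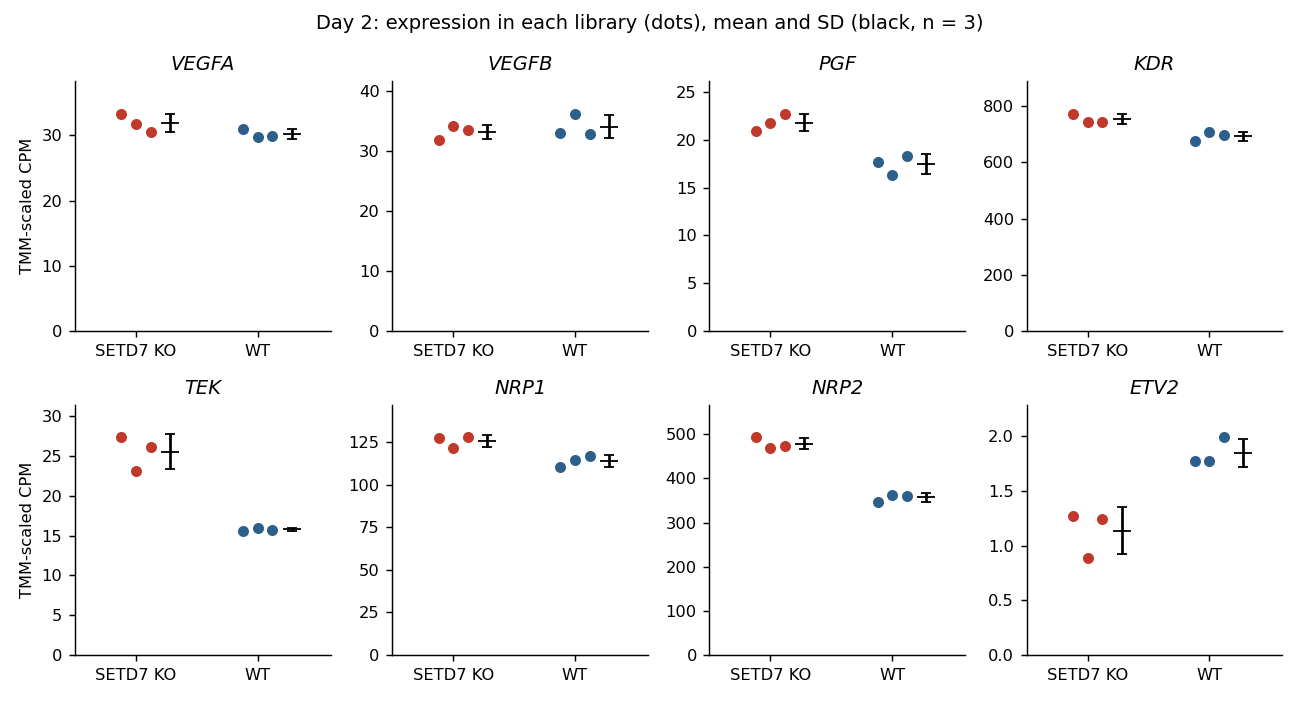
TMM-scaled CPM (y axis, from 0) of the 8 genes in each day 2 library, SETD7 KO left and WT right; dots are libraries, and the black bar is the mean with SD (n = 3). SETD7 KO and WT dots are apart for PGF, KDR, TEK, NRP1, NRP2 and ETV2, with ETV2 lower in SETD7 KO, and overlap for VEGFA and VEGFB.

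Among the ligands, PGF (placental growth factor) changed and the 2 VEGF genes did not pass. PGF was at 20.9, 21.8 and 22.7 CPM in SETD7 KO libraries, against 17.7, 16.4 and 18.3 CPM in WT libraries. Every SETD7 KO library was above every WT library. Its log2 fold change was 0.32 (SE 0.076, edgeR adjusted p 0.00200), or 24.6% higher in SETD7 KO.

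VEGFA, the main angiogenic ligand, was at 33.3, 31.7 and 30.6 CPM in SETD7 KO libraries, against 31.0, 29.7 and 29.9 CPM in WT libraries. The groups overlapped, and the difference did not pass (log2 fold change 0.08, SE 0.062, edgeR adjusted p 0.379). The edgeR 95% interval of the SETD7 KO level relative to WT ran from -3.09% to 15.2%, so a rise of PGF's size lies outside it. VEGFB, a ligand of FLT1, was at 31.9, 34.2 and 33.4 CPM in SETD7 KO libraries, against 33.0, 36.2 and 32.9 CPM in WT libraries. The VEGFB groups overlapped too (log2 fold change -0.04, SE 0.061, edgeR adjusted p 0.689), with an interval of -10.7% to 5.99%.

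Both receptors rose, by 61.8% for TEK and 8.69% for KDR. KDR was at 773, 743 and 744 CPM in SETD7 KO libraries, against 675, 707 and 697 CPM in WT libraries. The groups were apart, and the 95% interval of the increase was 4.12% to 13.5% (log2 fold change 0.12, SE 0.030, edgeR adjusted p 0.00352). A change of that size or larger, in either direction, was seen in 41.3% of all tested genes.

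TEK was at 27.3, 23.1 and 26.1 CPM in SETD7 KO libraries, against 15.6, 15.99 and 15.7 CPM in WT libraries. SETD7 KO libraries were all higher, and they spread more (SD 2.20 CPM) than the WT libraries (SD 0.201 CPM; n = 3 each). The TEK level was 61.8% higher in SETD7 KO, with a 95% interval of 45.3% to 80.2% (log2 fold change 0.69, SE 0.077, edgeR adjusted p 1.73e-08), and 1.25% of all tested genes had a log2 fold change of that size or larger in either direction.

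Both co-receptors rose, NRP2 by 34.2% and NRP1 by 10.1%. NRP2 was at 493, 469 and 474 CPM in SETD7 KO libraries, against 346, 363 and 361 CPM in WT libraries. All SETD7 KO libraries were above all WT libraries, and NRP2 had the 20th smallest p of all 11475 genes (log2 fold change 0.42, SE 0.032, edgeR adjusted p 2.16e-12; 34.2% higher in SETD7 KO). NRP1 was at 128, 121 and 128 CPM in SETD7 KO libraries, against 110, 115 and 117 CPM in WT libraries. Here too the groups were apart, and NRP1 was 10.1% higher in SETD7 KO (log2 fold change 0.14, SE 0.039, edgeR adjusted p 0.00825). Its adjusted p was 0.0516 without knockout replicate 3 and 0.0556 without wild-type replicate 1, within a range of 0.00337 to 0.0556 over all alternatives.

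ETV2 was the 1 gene of the 8 that fell, and it had few reads. It had 51, 31 and 37 counts in SETD7 KO libraries, against 49, 57 and 60 counts in WT libraries, which is 1.27, 0.887 and 1.24 CPM in SETD7 KO and 1.77, 1.78 and 1.99 CPM in WT libraries. On the CPM scale every SETD7 KO library was below every WT library (log2 fold change -0.70, SE 0.25, edgeR adjusted p 0.0399). The 95% interval, from -56.8% to -12.3%, covers a small as well as a large decrease. The call ended in 7 of 13 alternatives: without knockout replicate 2 or 3 or wild-type replicate 1, 2 or 3 (adjusted p 0.0637 to 0.164), with the replicate block (0.0606) and in DESeq2 (0.0652). The adjusted p lay between 0.0368 and 0.164 across the 13.

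The ratio of 2 genes within a library does not depend on how libraries were scaled. The TEK to KDR ratio of counts was 0.0354, 0.0311 and 0.0351 in SETD7 KO libraries, against 0.0231, 0.0226 and 0.0226 in WT libraries. The ratio was higher in every SETD7 KO library than in any WT library, with a log2 difference of 0.57. The NRP1 to NRP2 ratio was 0.259, 0.259 and 0.270 in SETD7 KO libraries, against 0.319, 0.316 and 0.325 in WT libraries, a log2 difference of -0.29. The PGF to VEGFA ratio was 0.627, 0.685 and 0.743 in SETD7 KO libraries, against 0.570, 0.551 and 0.613 in WT libraries (log2 difference 0.24). Groups were apart for these 3 ratios. KDR to NRP1 (log2 difference -0.019) and VEGFA to VEGFB (0.11) overlapped between genotypes. Single libraries moved both: the KDR to NRP1 difference was 0.0029 without knockout replicate 3 and between -0.035 and 0.0029 over the 6 libraries left out in turn. The VEGFA to VEGFB difference was 0.054 without knockout replicate 1, 0.056 without wild-type replicate 2 and at most 0.16. An exact 2-sided permutation test gave p = 0.1 for each of the 3 separated ratios, the smallest p that 3 against 3 libraries allow (0.167 adjusted over the 5 ratios), and 0.5 and 0.4 for the others, so no ratio could reach 0.05.

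**Figure D2:**
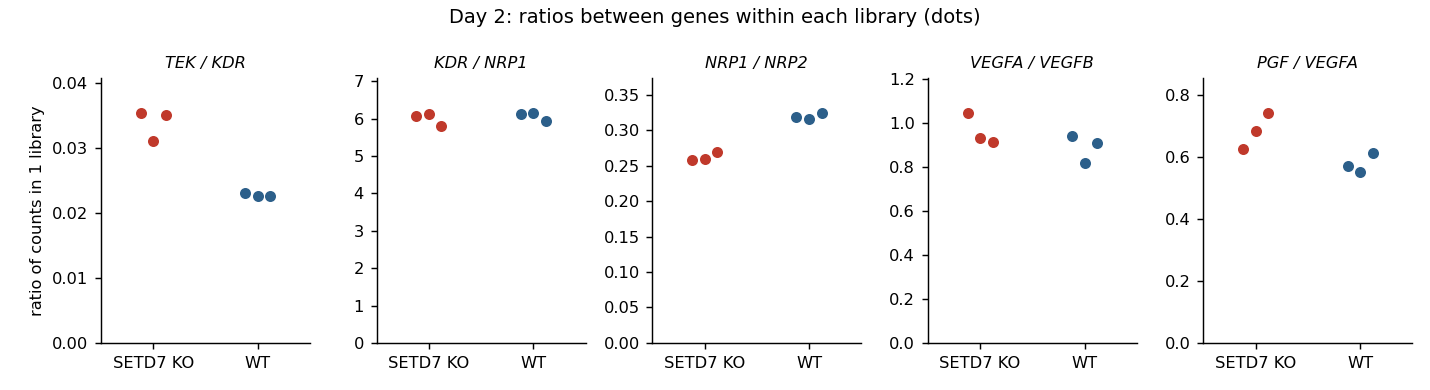
Ratio of the counts of 2 genes within each day 2 library (y axis, from 0), SETD7 KO left and WT right, with 1 dot per library (n = 3). SETD7 KO dots lie above WT for TEK / KDR and PGF / VEGFA and below WT for NRP1 / NRP2.

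Levels of different genes were compared per kilobase of annotated exon (CPM per kilobase). KDR was the most abundant of the 8 at day 2, at 114.8 ± 2.66 in SETD7 KO and 105.6 ± 2.46 in WT libraries (SD, n = 3). NRP2 followed at 34.5 ± 0.901 in SETD7 KO and 25.7 ± 0.674 in WT libraries, then VEGFB at 21.5 ± 0.747 in SETD7 KO and 22.04 ± 1.23 in WT libraries. NRP1 was at 10.9 ± 0.314 in SETD7 KO and 9.90 ± 0.308 in WT libraries, and TEK at 5.31 ± 0.458 in SETD7 KO and 3.28 ± 0.0418 in WT libraries. PGF was at 3.65 ± 0.154 in SETD7 KO and 2.93 ± 0.170 in WT libraries, VEGFA at 2.21 ± 0.0951 in SETD7 KO and 2.09 ± 0.0498 in WT libraries, and ETV2 last at 0.527 ± 0.0998 in SETD7 KO and 0.858 ± 0.0579 in WT libraries. The order was the same in both genotypes, and neighbours in it did not overlap in either. The closest neighbours were TEK and PGF in WT libraries, 1.12 times apart (1.45 times in SETD7 KO). With the longest transcript as length, PGF was above TEK in both genotypes, at 6.14 against 5.36 in SETD7 KO and 4.92 against 3.31 in WT. The place of VEGFA depends on its 14431 exon bases, against 1545 for VEGFB, which had a similar CPM (31.9 and 33.2 in SETD7 KO). In the day 0 FPKM, whose lengths are not known, VEGFA (11.4 in SETD7 KO, 19.2 in WT) was above TEK (8.79 and 5.59). The part of length was not tested.

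**Figure D3:**
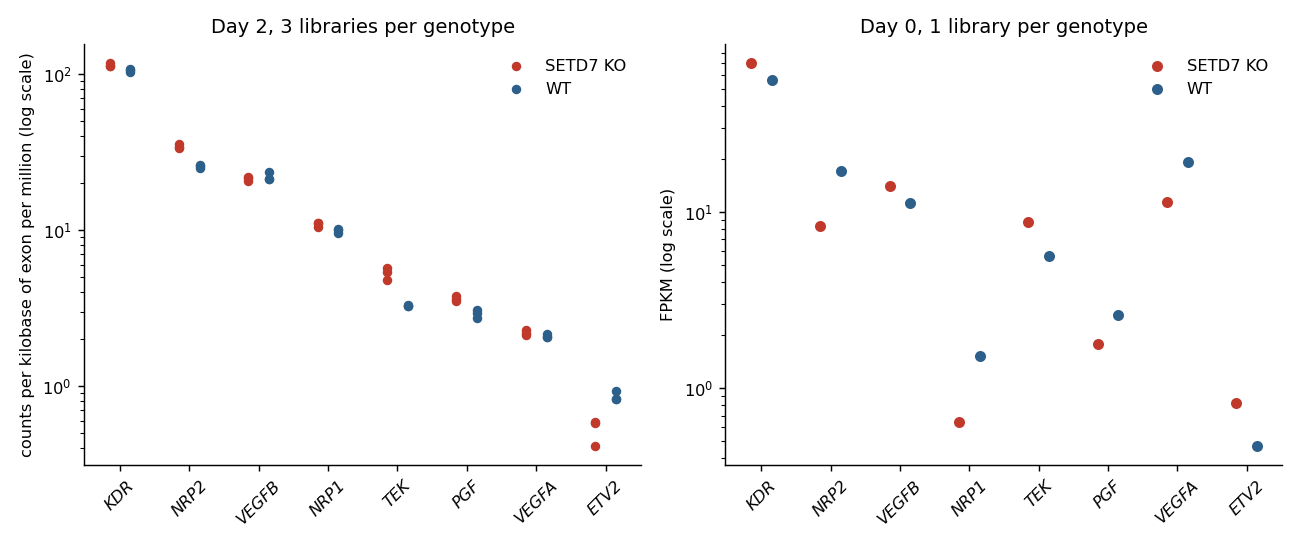
Levels of the 8 genes per length on log axes, SETD7 KO left of WT: CPM per kilobase of exon in each day 2 library (left panel) and FPKM in the single day 0 libraries (right panel). KDR is highest and ETV2 among the lowest on both days, and at day 0 PGF, NRP1 and NRP2 are lower in SETD7 KO, the other way round from day 2.

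The second question was whether the genotypes already differed at day 0. There, with 1 library per genotype and no replicate check, 4 of the 8 genes were higher and 4 lower in the SETD7 KO library. Past 1.5-fold on the scale of FPKM + 1 were 3 genes, all lower in SETD7 KO; of all 13280 genes with at least 1 FPKM in either library, 13.6% were past that fold, 4.81% higher and 8.77% lower. Of the 8 genes, 7 reached 1 FPKM in at least 1 library, NRP1 in the WT library only, so nothing is read from their count against that share. The count depends on the pseudocount: 1 gene (NRP2) was past 1.5-fold with 5 FPKM added, and 3 lower and 2 higher (TEK and ETV2) with 0.1 FPKM added and no filter.

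The 3 lower genes were NRP2, VEGFA and NRP1. NRP2 was at 8.28 FPKM in the SETD7 KO and 17.1 FPKM in the WT library (log2 ratio -0.96), and 3.37% of all genes had a ratio as large. VEGFA was at 11.4 FPKM in the SETD7 KO and 19.2 FPKM in the WT library (-0.70). NRP1 was at 0.642 FPKM in the SETD7 KO and 1.53 FPKM in the WT library (-0.63), both low levels. PGF was lower as well, at 1.77 FPKM in the SETD7 KO and 2.61 FPKM in the WT library (-0.38).

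TEK and KDR were higher in the SETD7 KO library at day 0, as at day 2. TEK was at 8.79 FPKM in the SETD7 KO and 5.59 FPKM in the WT library (log2 ratio 0.57), just under the 1.5-fold line, and KDR was at 69.8 FPKM in the SETD7 KO and 55.8 FPKM in the WT library (0.32). VEGFB was at 14.1 FPKM in the SETD7 KO and 11.3 FPKM in the WT library (0.30). ETV2 was under 1 FPKM in both, at 0.826 FPKM in the SETD7 KO and 0.469 FPKM in the WT library. KDR was thus the highest of the 8 genes per length at day 0 too. The genotypes were apart at day 2 with a day 0 difference of the opposite sign in 4 of the 8 genes (PGF, NRP1, NRP2 and ETV2), against 22.5% of the 11285 genes tested at day 2 that are also in the day 0 table. Being apart at day 2 is part of that rule, and it held for 6 of the 8 genes and for 37.7% of all tested genes. Over all genes, 4327 were apart at day 2 and 2536 met the whole rule, so 22.5% is not a rate of reversal among genes that were apart.

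The day 0 and day 2 values differ in unit and were normalised separately, so only ranks were set side by side, among 11140 genes in both tables and without a test. NRP1 was at the 2.31 percentile in the SETD7 KO and the 5.05 percentile in the WT library at day 0, and at the 64.4 and 61.6 percentiles of the SETD7 KO and WT means at day 2. NRP2 was at the 42.4 percentile in SETD7 KO and 66.7 in WT at day 0, and at 89.3 in SETD7 KO and 84.6 in WT at day 2. PGF was at the 7.39 percentile in SETD7 KO and 10.8 in WT at day 0, and at 33.4 in SETD7 KO and 29.1 in WT at day 2. These 3 genes ranked higher at day 2 in both genotypes. VEGFA ranked lower at day 2, at 22.2 in SETD7 KO and 21.9 in WT. Its day 0 ranks were 53.6 in SETD7 KO and 70.5 in WT. The day 2 ranks divide by all annotated exon bases, 14431 for VEGFA against 1545 for VEGFB. The lengths behind the day 0 FPKM are not known, and the part of length in the VEGFA ranks was not tested. KDR was between the 91.6 and 97.4 percentiles on both days and in both genotypes. TEK was at 44.4 in SETD7 KO and 27.9 in WT at day 0, and at 43.2 in SETD7 KO and 31.4 in WT at day 2. VEGFB was at 60.5 in SETD7 KO and 52.3 in WT at day 0, and at 81.8 in SETD7 KO and 82.2 in WT at day 2. ETV2 was among the lowest genes throughout, at 2.88 in SETD7 KO and 1.72 in WT at day 0 and at 3.77 in SETD7 KO and 8.11 in WT at day 2.

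**Figure D4:**
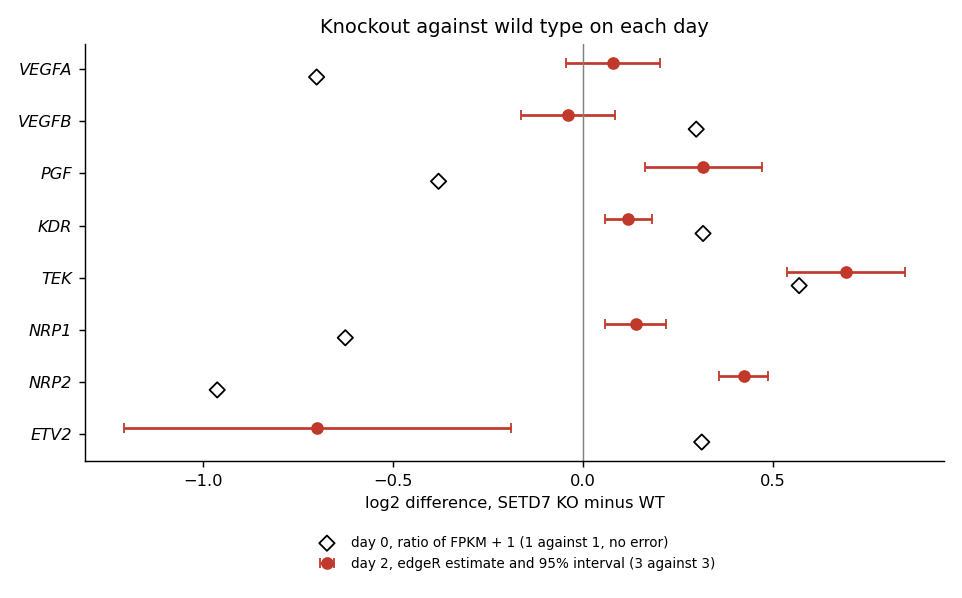
Log2 difference of SETD7 KO minus WT (x axis) for the 8 genes: filled circles are day 2 edgeR estimates with 95% intervals (3 against 3 libraries), open diamonds are day 0 log2 ratios of FPKM + 1 (1 against 1, no error). KDR and TEK lie right of 0 on both days, and PGF, NRP1 and NRP2 lie left of 0 at day 0 and right of 0 at day 2.

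Other genes of the pathway were read from the same day 2 fit. Of 9 further VEGF and angiopoietin ligands and receptors, 3 could be tested and 1 rose (33.3% called, against 23.3% of all genes). The median log2 fold change of the 3, 0.25, is the value of the gene that rose. That gene was ANGPT2, an angiopoietin that binds TEK, at 35.8 ± 1.30 CPM in SETD7 KO and 30.1 ± 1.78 CPM in WT libraries (SD, n = 3; log2 fold change 0.25, edgeR adjusted p 0.00300). FLT1 did not pass, at 113 ± 2.31 CPM in SETD7 KO and 117 ± 3.81 CPM in WT libraries (-0.06, edgeR adjusted p 0.331). At day 0 FLT1 was at 23.1 FPKM in the SETD7 KO and 28.5 FPKM in the WT library.

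The partners of the neuropilins were read next. Of 9 tested class 3 semaphorins, plexins and the adaptor GIPC1, 5 rose and none fell. That is 55.6% called, against 23.3% of all genes, with a median log2 fold change of 0.13. Without knockout replicate 1 or wild-type replicate 1, 4 rose. The list was chosen with earlier results of these data known, so this share is a description only. SEMA3F, a semaphorin that binds NRP2, was at 131 ± 5.36 CPM in SETD7 KO and 87.9 ± 1.99 CPM in WT libraries (0.57, edgeR adjusted p 7.44e-13). SEMA3C, another neuropilin ligand, was at 23.6 ± 2.61 CPM in SETD7 KO and 18.3 ± 0.410 CPM in WT libraries (0.37). The plexins PLXND1 (log2 fold change 0.22) and PLXNA2 (0.14) also rose. At day 0, 4.81% of all genes at 1 FPKM or more were past 1.5-fold higher and 8.77% lower. The same list had 1 gene past that fold higher and 1 lower in the SETD7 KO library, of 9 at 1 FPKM or more. The higher one was SEMA3A, at 9.37 FPKM in the SETD7 KO and 4.39 FPKM in the WT library. The lower one, named after its values were seen, was SEMA3B, at 1.74 FPKM in the SETD7 KO and 3.45 FPKM in the WT library.

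Of 29 tested signal transducers downstream of VEGF receptors, 5 rose and 3 fell. That is 27.6% called, close to the 23.3% of all genes, with a median log2 fold change of -0.011, and without wild-type replicate 3 the numbers were 4 and 1. The adaptor SHC1 rose to 207 ± 4.31 CPM in SETD7 KO, against 176 ± 7.56 CPM in WT libraries (0.23, edgeR adjusted p 6.71e-06). PIK3CB, a catalytic subunit of PI3-kinase, rose by 0.20 and the MAP kinase kinase MAP2K1 by 0.17 on the log2 scale, and the small GTPase CDC42 fell by 0.14 on that scale. At day 0, the focal adhesion adaptor PXN was at 48.2 FPKM in the SETD7 KO and 25.5 FPKM in the WT library.

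Hemato-endothelial regulators and surface genes were called about as often as all genes. Of 32 listed genes, 15 were not in the day 2 table, among them TAL1, LMO2, FLI1, ERG, CD34, PECAM1 and CDH5. Of the 17 tested, 3 rose and 1 fell (23.5% called, median log2 fold change 0.06). PDGFRA, a receptor of early mesoderm, was at 169 ± 5.34 CPM in SETD7 KO and 141 ± 4.32 CPM in WT libraries (0.26, edgeR adjusted p 1.58e-06). APLNR, the apelin receptor of mesodermal progenitors, was at 2621 ± 22.01 CPM in SETD7 KO and 2391 ± 19.7 CPM in WT libraries (0.13, edgeR adjusted p 0.000500). ENG, the TGF-beta co-receptor endoglin, rose by 0.52 on the log2 scale, and CBFB, the partner of RUNX factors, fell by 0.22. At day 0, with 1 library per genotype, 3 of the 13 genes that reached 1 FPKM were past 1.5-fold higher in SETD7 KO and 0 were lower. Over all 13280 genes at 1 FPKM or more, 4.81% were higher and 8.77% lower. ETS1, an ETS-family factor, was at 21.7 FPKM in the SETD7 KO and 9.0 FPKM in the WT library. Also higher, and named after their values were seen, were ENG and the ETS-family repressor ETV6, both at low levels. ENG was at 2.44 FPKM in the SETD7 KO and 1.23 FPKM in the WT library (log2 ratio 0.62). ETV6 was at 3.62 FPKM in the SETD7 KO and 2.04 FPKM in the WT library (0.61).

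VEGFA is a textbook target of the hypoxia-inducible factors, so that list was read beside it. Of 15 tested hypoxia regulators and targets, 2 rose and 4 fell (40% called, against 23.3% of all genes, median log2 fold change -0.07). This list too was chosen with earlier results of these data known, so the share is a description only, and a link to VEGFA was not tested. LDHA (log2 fold change -0.13) and ADM (-0.55, named after its values were seen) were among those that fell. HIF1A, which encodes the oxygen-regulated subunit, was at 269 ± 10.5 CPM in SETD7 KO and 298 ± 11.8 CPM in WT libraries (-0.15, edgeR adjusted p 0.00143), and the prolyl hydroxylase EGLN3 fell by 0.22 on the log2 scale. PDK1, an inhibitor of pyruvate dehydrogenase, was at 62.7 ± 2.79 CPM in SETD7 KO and 44.0 ± 1.03 CPM in WT libraries (0.51, edgeR adjusted p 3.04e-09), and BNIP3 rose by 0.27. At day 0, where VEGFA was lower in the SETD7 KO library, 4 of 17 hypoxia genes were past 1.5-fold higher and 1 lower. Over all genes at 1 FPKM or more, 4.81% were higher and 8.77% lower. The lower hypoxia gene, named after its values were seen, was NDRG1, at 1.45 FPKM in the SETD7 KO and 3.21 FPKM in the WT library. LDHA was at 206 FPKM in the SETD7 KO and 92.5 FPKM in the WT library, PDK1 at 8.47 FPKM in the SETD7 KO and 3.09 FPKM in the WT library, and SLC2A1 at 90.4 FPKM in the SETD7 KO and 56.9 FPKM in the WT library.

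**Figure D5:**
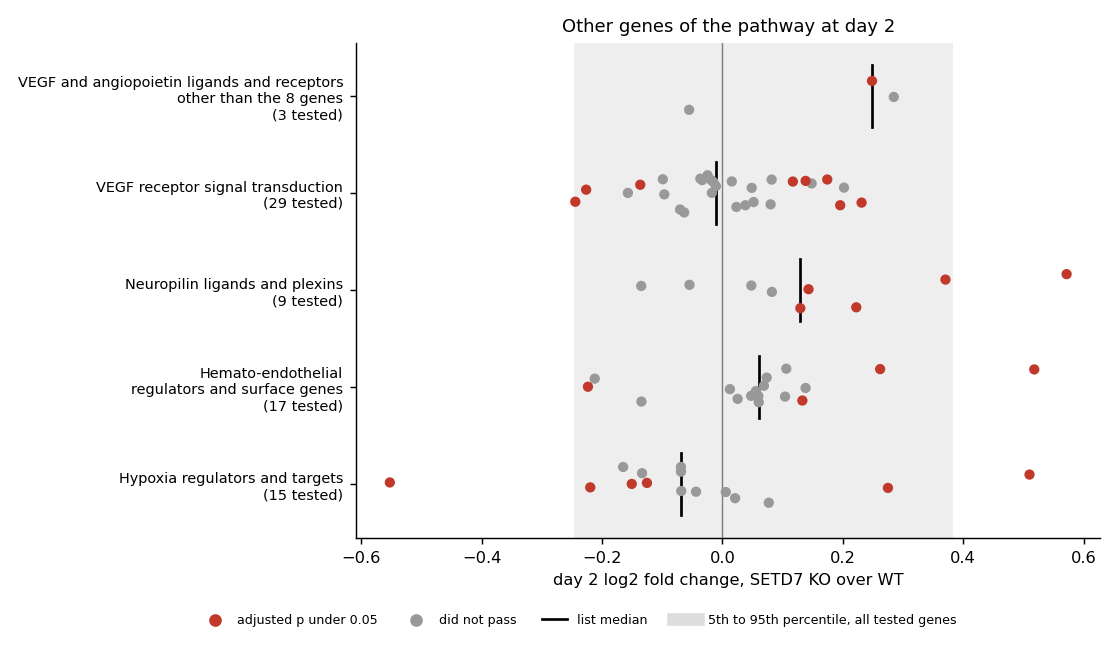
Day 2 log2 fold change of SETD7 KO over WT (x axis) for the tested genes of 5 lists (rows); red dots passed an adjusted p under 0.05, grey dots did not, black lines are list medians, and the grey band spans the 5th to 95th percentile of all tested genes. Neuropilin ligands and plexins have 5 red dots right of 0 and none left of it, and the signal transduction and hypoxia lists have red dots on both sides.

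Exons of ANGPT2, CDC42, ENG, HIF1A, KRT7, MAP2K1, PDGFRA, PDK1, PXN, SEMA3F, SHC1, SLC2A1, TBC1D16 and TDGF1 overlap another annotated gene, over 59.4% of the exon bases in CDC42 and 17.2% or less in the others, and their values carry that uncertainty.

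Markers of other cells moved between the genotypes as well, and their part in the results above was not tested. Over all tested genes at day 2, 23.3% were called, 12.3% higher and 11% lower. The marker lists are short, so their counts against these shares are a description only. At day 2 the 8 stem cell markers (2 rose, DNMT3B and TDGF1, and NANOG fell) summed to 2913 to 2937 CPM in SETD7 KO and 2777 to 2783 CPM in WT libraries. Lateral plate and cardiac markers (1 of 9 rose, 4 fell) summed to 1855 to 1876 CPM in SETD7 KO and 1918 to 1974 CPM in WT libraries. Endoderm markers (1 of 6 rose, 2 fell) summed to 9203 to 9367 CPM in SETD7 KO and 8377 to 8481 CPM in WT libraries, of which CER1 made 8432 CPM in SETD7 KO and 7482 CPM in WT libraries on average. Of 6 neural markers, PAX6 and SOX1 were not in the day 2 table. The 4 tested (3 rose, none fell) summed to 1080 to 1137 CPM in SETD7 KO and 1025 to 1052 CPM in WT libraries. NES alone averaged 573 CPM in SETD7 KO and 525 CPM in WT libraries. Of the 4 amnion and trophoblast markers tested, 3 fell (TFAP2C, GATA3 and ISL1, the last also in the lateral plate list) and none rose. The 4 summed to 43.7 to 45.2 CPM in SETD7 KO and 55.1 to 56.2 CPM in WT libraries. GATA3 alone averaged 33.8 CPM in SETD7 KO and 39.0 CPM in WT libraries. The other 6 markers of that list were not in the day 2 table. At day 0, 6 of the 10 amnion and trophoblast markers were measured and summed to 11.6 FPKM in the SETD7 KO and 25.2 FPKM in the WT library, of which KRT7 made 7.42 FPKM in the SETD7 KO and 19.6 FPKM in the WT library. Neural markers at day 0 summed to 107 FPKM in the SETD7 KO and 161 FPKM in the WT library. Past 1.5-fold lower were 2 of 4, OTX2 (log2 ratio -1.07) and ZIC2 (-0.79), against 8.77% of all genes at 1 FPKM or more. As a sum the neural markers were lower in SETD7 KO at day 0 and higher at day 2, although OTX2 did not pass at day 2 (log2 fold change -0.085).

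The genes whose day 2 pattern was most like that of KDR over the 6 libraries were TBC1D4 (Pearson r 0.998), TBC1D16 (0.997) and the DNA methyltransferase DNMT3B (0.996), out of 9000 genes averaging 10 CPM or more. Those most like TEK were GADD45A (0.997), the transcription factor SALL1 (0.996) and the kinesin KIF21B (0.996). The 6 libraries share the genotype split and their scaling, so these values are a description.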

How the data were processed

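RNA-seq values of 8 libraries were used as deposited: per the file headers, counts per gene for 6 day 2 libraries and FPKM for 2 day 0 libraries. The submitters' processing notes name HISAT2, StringTie and GRCh38 (hg38) without versions; the counting tool, the strand setting and the annotation release were not given there. Groups and replicate numbers came from the sample labels. Day 2 counts were TMM-scaled, filtered with filterByExpr (11475 of 11644 genes kept) and fitted with edgeR 4.0.16 (robust quasi-likelihood F test, genotype as the only term, Benjamini-Hochberg over all genes, R 4.3.3); SE is the log2 fold change over the root of F. The code of the fit was also run on simulated counts with known changes and the same dispersion for every gene. That run does not bear on the spread of these libraries or on what the replicates are. Day 0 was compared as the log2 ratio of FPKM + 1, without a test. Exon lengths and positions came from GENCODE release 29 (98.7% of the day 2 symbols matched), promoters from RefSeq. Alternatives used DESeq2 1.42.0, limma 3.58.1, other scalings, filters and pseudocounts, a replicate block and leaving out each library. The 8 genes and the lists were chosen with earlier results of these data known. Named were the 8 genes, SETD7, per list up to 4 called genes with the smallest p at day 2 and up to 3 with the largest day 0 ratio at 5 FPKM or more, and the 3 genes most like KDR and TEK.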

Additional observations from a re-analysis of the deposited data

Results flagged for a closer look

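For 4 of the 8 genes, all 3 SETD7 KO libraries lay on one side of all 3 WT libraries at day 2, while the single SETD7 KO library lay on the other side at day 0. PGF had a log2 fold change of 0.32 at day 2 and a log2 ratio of -0.38 at day 0. NRP1 had 0.14 at day 2 and -0.63 at day 0. NRP2 had 0.42 at day 2 and -0.96 at day 0. ETV2 went the other way, with -0.70 at day 2 and 0.31 at day 0, from under 1 FPKM at day 0 and at most 60 counts at day 2. The difference between the days was not tested, since day 0 has 1 library per genotype and another unit. By the same rule, 22.5% of the 11285 genes tested at day 2 and also in the day 0 table lay on opposite sides on the 2 days. Being apart at day 2 is part of the rule, and it held for 6 of the 8 genes and 37.7% of all tested genes. Over all genes, 4327 were apart at day 2 and 2536 met the whole rule, so nothing is read from 4 of 8 against 22.5%.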

How the results depend on the processing

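The day 2 calls of KDR, TEK, PGF and NRP2 held under all 13 alternatives, and VEGFA and VEGFB passed under none of them. NRP1 lost its call without knockout replicate 3 or wild-type replicate 1, with log2 fold changes of 0.12 to 0.16 over the libraries left out. ETV2 lost its call in DESeq2 (-0.70), with the replicate block (-0.71) and when 5 of the 6 libraries were left out in turn (log2 fold changes of -0.80 to -0.55 over all 6). Its depth was 31 to 60 counts per library, and the cause was not tested. The replicate block moved the count of called genes over the whole table to 2210, against 2668 without it, and changed no other call among the 8 genes. Same-numbered libraries did not deviate together (correlations of -0.086, -0.065 and -0.028) and share only a number. With that pairing, all 5 within-library ratios kept 1 sign in the 3 pairs, against 3 ratios with separate groups. Upper-quartile scaling gave 1605 genes higher and 1010 lower, against 1406 and 1262. At day 0, a pseudocount of 5 FPKM left 1 gene (NRP2) past 1.5-fold, by its construction, since VEGFA and NRP1 are then damped to -0.56 and -0.21. TEK passed 1.5-fold at a pseudocount of 0.1 FPKM (0.64) and after centring (0.60). With 0.1 FPKM and no filter, an alternative chosen after seeing the data, 5 genes passed, since ETV2 (0.70) was then counted too. The day 0 values have no replicate.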
